A study of Oryza sativa with 12 samples.

Results

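The array annotation named 6 rice WRKY transcription factor genes, measured by 7 probe sets, among 17905 genes with a symbol. A gene was taken when a probe set with 1 annotated gene had WRKY and a number as its symbol or synonym. The 6 genes were WRKY71 (LOC4328512, chromosome 2), WRKY51 (chromosome 4), WRKY24 (LOC4327518, chromosome 1), WRKY62 (LOC4347070, chromosome 9), WRKY76 (LOC4347069, chromosome 9) and WRKY9 (LOC4343736, chromosome 7). WRKY62 and WRKY76 are neighbouring genes in the reference gene table. WRKY71 had 2 probe sets, and the brighter of them over the 12 arrays stood for the gene. The rice genome holds many more WRKY genes than the annotation names, so the values cover a part of the family.

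WRKY proteins are plant transcription factors that bind the W-box, a short DNA element, through a domain of conserved amino acids and a zinc finger. Many are induced by pathogens or abiotic stress, and others act in seeds, senescence and hormone responses. WRKY62, WRKY71 and WRKY76 belong to the same subgroup, IIa. In the rice aleurone, the cell layer of the grain that secretes starch-degrading enzymes, WRKY71, WRKY51 and WRKY24 repress the gibberellin response.

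Levels came from Affymetrix rice arrays hybridised with total RNA of whole panicles, the young inflorescences, of plants grown in a paddy field. The 4 groups were osmads1 panicles of 2 mm, wild-type panicles of 2 mm, osmads1 panicles of 5-7 mm and wild-type panicles of 5-7 mm, with 3 biological replicates each. The OsMADS1 gene product is a MADS-box factor of floret meristem and floral organ identity, and the study compared the mutant with wild type at an early and a later stage of flower development. The labels name neither the mutant allele nor the variety, and no treatment was given. In whole panicles, fewer cells of a type and less RNA per cell cannot be told apart.

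A level is the deposited log2 value, and a difference is the osmads1 mean minus the wild-type mean, in log2 units, ± SE from limma. Adjusted p-values cover all 57194 probe sets tested, and a gene was called below 0.05. The mutant had OsMADS1 levels of 4.86 ± 0.52 at 2 mm and 4.10 ± 0.76 at 5-7 mm, against 10.80 ± 0.20 and 11.53 ± 0.07 in wild type (SD, n = 3). The 12 panicle and floret markers were bright in every group, with array averages of 8.64 to 8.80 in osmads1 and 9.34 to 9.50 in wild type at 2 mm, and 9.95 to 10.14 and 10.22 to 10.28 at 5-7 mm. Of these markers, 0 were called higher and 6 lower in osmads1 at 2 mm, against 10.2% and 12.1% of all genes, and 5 higher and 6 lower at 5-7 mm, against 13.3% and 19.4%. At 5-7 mm LAX1, a regulator of axillary meristems, was 5.23-fold higher and the MADS-box gene MADS7 3.75-fold lower. The tables hold no detection call, so the readings of 64 reporter control probe sets, which are named for reporter sequences and not for rice genes, served as a gauge of background. At 2 mm their 90th percentile was 3.76 in osmads1 and 3.78 in wild type, and at 5-7 mm it was 4.32 and 4.30.

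WRKY71 fell about 20-fold in osmads1 panicles of 5-7 mm and was not called at 2 mm. At 5-7 mm its level was 4.15, 4.22 and 4.11 in the osmads1 arrays, against 8.89, 7.57 and 8.94 in the wild-type arrays. All mutant arrays lay far below all wild-type arrays, and the wild-type array of replicate 2 was the lowest of its group. The difference was -4.31 ± 0.28 (19.8-fold, 95% interval -4.91 to -3.70, limma adjusted p = 2.11e-07). The mutant reading exceeded 54 of the 64 reporter controls but lay below their 90th percentile, so the fall was at least 17.7-fold when that percentile is taken as the floor. That least fold rests on group means, and was 15.0 without wild-type replicate 3 and 24.1 without wild-type replicate 2.

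The early panicles did not share this fall. At 2 mm WRKY71 read 6.23, 6.55 and 6.53 in osmads1, against 5.66, 6.19 and 5.99 in wild type. Each mutant array exceeded each wild-type array. Yet the difference of 0.49 ± 0.28 missed the threshold (95% interval -0.11 to 1.1, limma adjusted p = 0.348). Its SE pools the spread of the 4 groups, of which later wild type was the widest (SD 0.78). The early groups had SDs of 0.18 (osmads1) and 0.27 (wild type). When only the early arrays were fitted, the limma adjusted p was 0.0603, still above the threshold. The change of the genotype difference between the lengths, the interaction, was -4.80 ± 0.39 (limma adjusted p = 1.73e-06).

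The second WRKY71 probe set gave the same direction at 5-7 mm with a far smaller size. It read 4.60, 4.60 and 4.60 in osmads1, against 5.43, 5.13 and 5.13 in wild type. The groups did not overlap, and the difference was -0.63 ± 0.095 (limma adjusted p = 0.000339). At 2 mm the same probe set differed by 0.020 ± 0.095 (limma adjusted p = 0.950), and its interaction of -0.65 passed the test (limma adjusted p = 0.00329). This probe set was dim throughout, with 60 to 62 of the 64 reporter controls below it in each group.

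**Figure D1:**
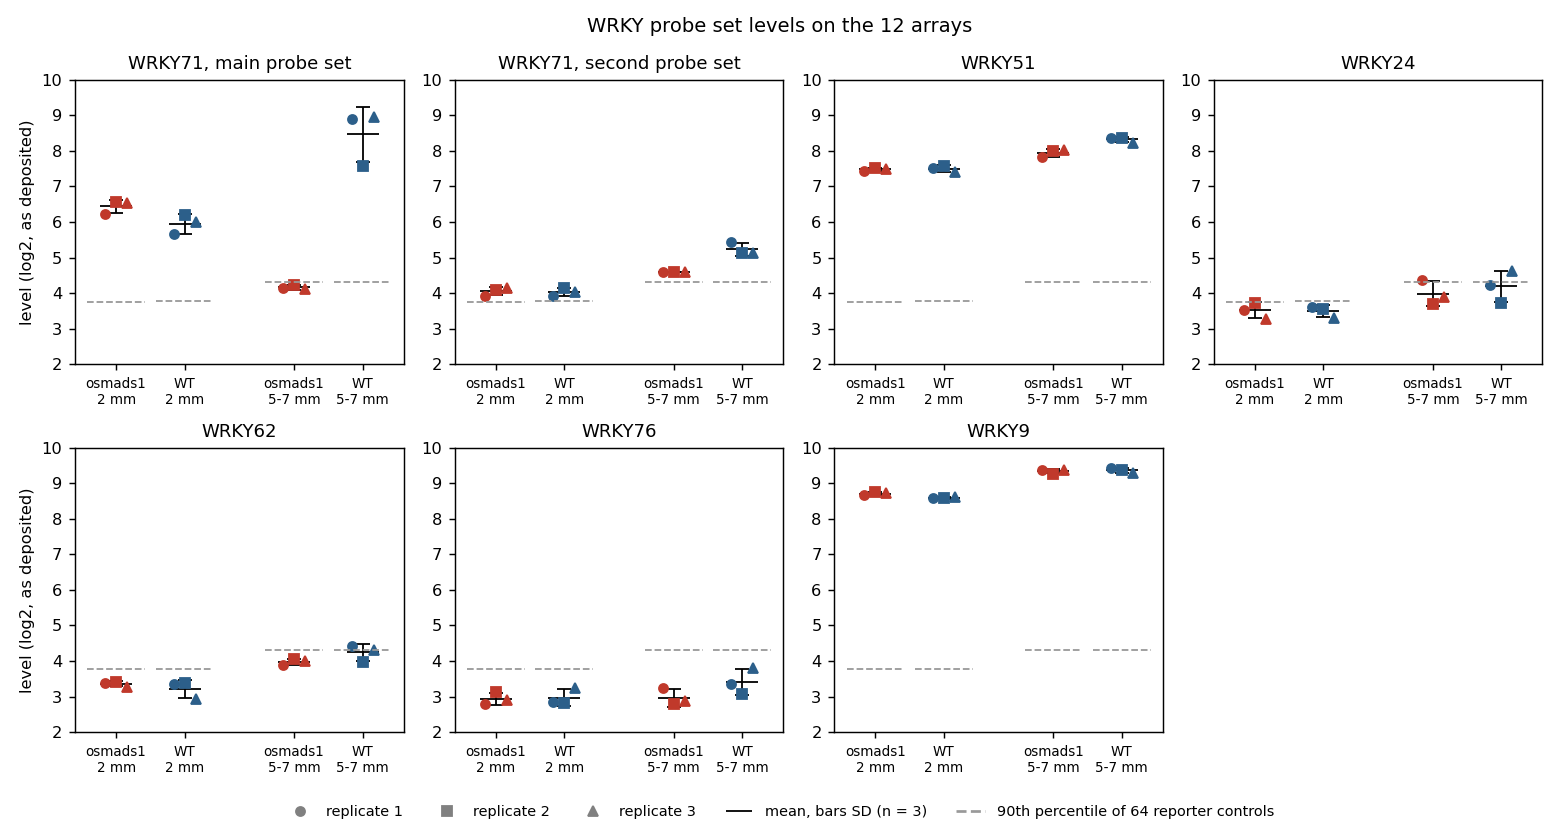
Deposited log2 level (vertical axis) of the 7 WRKY probe sets on the 12 arrays, with osmads1 in red and wild type (WT) in blue at each panicle length. Points are replicates, black marks are means with SD (n = 3), and dashed lines give the 90th percentile of the 64 reporter controls. WRKY71 in osmads1 lies under that line at 5-7 mm (4.11 to 4.22), against 7.57 to 8.94 in wild type, while WRKY24, WRKY62 and WRKY76 stay near or below it in all groups.

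WRKY51, which acts together with WRKY71 in repressing the gibberellin response of the rice aleurone, fell slightly in the later panicles. At 5-7 mm it read 7.82, 7.99 and 8.04 in osmads1, against 8.37, 8.37 and 8.23 in wild type. The groups were separate, and the difference of -0.37 ± 0.080 was a 1.29-fold fall (limma adjusted p = 0.00438). At 2 mm its levels were 7.44, 7.51 and 7.48 in osmads1, against 7.51, 7.58 and 7.40 in wild type. These overlapped, with a difference of -0.02 ± 0.080 (95% interval -0.20 to 0.15, limma adjusted p = 0.930). The interaction of -0.35 ± 0.11 was close to the threshold (limma adjusted p = 0.0408), and it missed it in 11 of 22 alternative settings, with adjusted p-values of 0.0163 to 0.0973.

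WRKY24, the third gene of the aleurone group, was dim and scattered. At 5-7 mm it read 4.37, 3.70 and 3.89 in osmads1, against 4.21, 3.73 and 4.62 in wild type. At 2 mm it read 3.54, 3.72 and 3.28 in osmads1, against 3.62, 3.56 and 3.30 in wild type. The groups overlapped at both lengths, and its wild-type SD of 0.45 at 5-7 mm was larger than that of 99.0% of probe sets. Differences were -0.20 ± 0.21 at 5-7 mm (limma adjusted p = 0.567) and 0.02 ± 0.21 at 2 mm (limma adjusted p = 0.980). Its group means stood above 51 to 53 of the 64 reporter controls, so a change in this gene could hardly be seen on these arrays.

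WRKY62 and WRKY76, relatives of WRKY71 in subgroup IIa, repress defence in rice, and WRKY62 is also known as XB10, a protein that binds the immune receptor XA21. At 5-7 mm WRKY62 read 3.88, 4.06 and 3.99 in osmads1, against 4.43, 3.98 and 4.32 in wild type. WRKY76 read 3.23, 2.78 and 2.86 in osmads1, against 3.36, 3.06 and 3.80 in wild type. Both pairs of groups overlapped, through the low wild-type array of replicate 2. The differences were -0.27 ± 0.13 for WRKY62 (limma adjusted p = 0.180) and -0.45 ± 0.18 for WRKY76 (limma adjusted p = 0.104). Without that wild-type array, the lowest of its group for both genes, they were -0.40 and -0.62, with limma adjusted p-values of 0.0497 and 0.0331. Leaving out the lowest wild-type array could only widen these falls. Without wild-type replicate 3 they were -0.23 and -0.25, with limma adjusted p-values of 0.354 and 0.364. Neither gene was called when any other single array of that length was left out.

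At 2 mm neither gene was called. WRKY62 read 3.39, 3.41 and 3.28 in osmads1, against 3.35, 3.37 and 2.92 in wild type, a difference of 0.14 ± 0.13 (limma adjusted p = 0.618). WRKY76 read 2.79, 3.12 and 2.89 in osmads1, against 2.84, 2.81 and 3.24 in wild type, a difference of -0.03 ± 0.18 (limma adjusted p = 0.961). The arrays of the genotypes overlapped for both. All group means of WRKY62 and WRKY76 lay below the 90th percentile of the reporter controls, which limits what their readings can show.

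WRKY9 was bright and steady. It read 8.65, 8.74 and 8.72 in osmads1, against 8.57, 8.58 and 8.62 in wild type at 2 mm. At 5-7 mm the levels were 9.36, 9.27 and 9.37 in osmads1, against 9.42, 9.37 and 9.28 in wild type. The early mutant arrays were all slightly above the wild-type arrays, and the later ones overlapped. Differences of 0.12 ± 0.067 at 2 mm (95% interval -0.03 to 0.26, limma adjusted p = 0.365) and -0.03 ± 0.067 at 5-7 mm (95% interval -0.17 to 0.12, limma adjusted p = 0.843) missed the threshold. Both WRKY9 and WRKY51 exceeded all 64 reporter controls in every group.

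**Figure D2:**
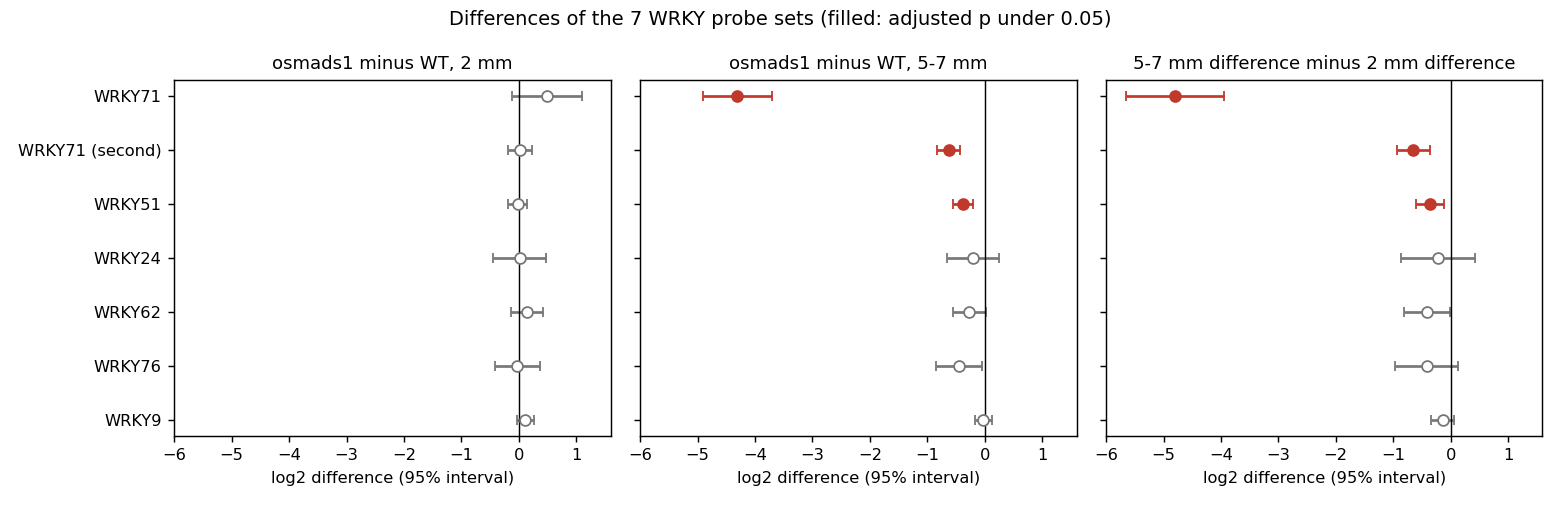
Log2 difference osmads1 minus wild type of each WRKY probe set at 2 mm and at 5-7 mm, and the change of that difference between the lengths, with 95% intervals (n = 3 per group). Filled red points passed the limma test. Only the WRKY71 probe sets and WRKY51 are filled, at 5-7 mm and in the interaction, and the main WRKY71 probe set lies far to the left at -4.31 and -4.80.

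Across the 6 genes, 0 were called at 2 mm by limma, where 22.3% of all genes with a symbol were called, and 0 had an unadjusted p below 0.05. All osmads1 arrays lay above all wild-type arrays for WRKY71 and WRKY9, 2 of the 6 genes, against 20.5% of all genes. At 5-7 mm, 2 of the 6 were called lower and 0 higher, while 19.4% of all genes were called lower and 13.3% higher. For WRKY71 and WRKY51, 2 of the 6, all osmads1 arrays lay below all wild-type arrays, against 29.0% of all genes. At least 2-fold calls numbered 1 of 6, WRKY71, against 4.19% of all genes. The median difference of the 6 genes was 0.07 at 2 mm, against -0.02 over all genes, and -0.32 at 5-7 mm, again against -0.02. In the interaction, 2 of 6 genes were called, both lower, against 19.2% of all genes called lower.

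One wild-type array of 5-7 mm, replicate 2, moved with several of these values. It had the lowest level of its group for WRKY71, WRKY76, WRKY62 and WRKY24, 4 of the 6 genes, and for 34.8% of all genes with a symbol. The SD of WRKY71 in wild type at 5-7 mm was 0.78, larger than that of 99.7% of probe sets, against 0.06 in osmads1. Without this array the WRKY71 difference was -4.76 and 4 of the 6 genes were called lower, WRKY62 and WRKY76 in addition to WRKY71 and WRKY51. For the genes where this array was the lowest, leaving it out could only widen the fall. The share of all genes called without this array is not given here.

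RNA quality was gauged by the 3' minus 5' readings of 4 rice control transcripts, actin, cyclophilin, Gapdh and ubiquitin. At 2 mm these were lower in all osmads1 arrays than in all wild-type arrays for 4 of 4 transcripts, for example 2.58 ± 0.06 in osmads1 and 3.58 ± 0.04 in wild type for Gapdh (SD, n = 3). At 5-7 mm the genotypes overlapped for 4 of 4, with 2.24 ± 0.44 in osmads1 and 2.1 ± 0.16 in wild type for Gapdh. The part of this in the 2 mm differences was not tested. Markers of green tissue averaged 5.95 to 6.39 over 9 genes in osmads1 arrays and 5.40 to 5.67 in wild-type arrays at 2 mm, and 6.11 to 6.60 against 5.75 to 5.97 at 5-7 mm. Of these markers, 4 were called higher and 0 lower at 2 mm, against 10.2% and 12.1% of all genes. At 5-7 mm 3 were called higher and 1 lower, against 13.3% and 19.4%. Single markers differed more than the averages. At 5-7 mm CAB2R was 5.64-fold and RCABP69 4.52-fold higher in osmads1, while petC was 1.64-fold lower. Markers of tapetum and pollen wall averaged 5.51 to 5.71 over 10 genes in osmads1 and 4.54 to 4.62 in wild type at 2 mm, and 4.95 to 5.16 against 5.08 to 5.24 at 5-7 mm. Of these 10, 5 were called higher and 1 lower at 2 mm and 1 each way at 5-7 mm, against the same shares of all genes. At 2 mm C4 was 15.0-fold higher in osmads1, and C6 at least 5.95-fold with the reporter percentile as the floor. MSP1 was 1.51-fold lower at that length. Without wild-type replicate 2 of 5-7 mm, 0 tapetum and pollen wall markers were called higher at that length. Within these lists RBCS1, TDR, PTC1 and EAT1 lay below the 90th percentile of the reporter controls in every group. Whether such cells contribute to the WRKY values was not tested.

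Between panicle lengths, WRKY71 went opposite ways in the genotypes. The array medians of the deposited levels differed by length (the median probe set was 0.606 higher at 5-7 mm in both genotypes), so all 12 arrays were quantile normalized together for this comparison. On that scale WRKY71 averaged 6.78 ± 0.19 at 2 mm and 3.78 ± 0.03 at 5-7 mm in osmads1, a fitted difference of -3.00 ± 0.29 (5-7 mm minus 2 mm, limma adjusted p = 3.94e-06). The reading at 5-7 mm lay under the reporters' 90th percentile, so the fall was at least 7.23-fold with that percentile as the floor. In wild type it averaged 6.31 ± 0.28 at 2 mm and 8.12 ± 0.78 at 5-7 mm, a rise of 3.51-fold (difference 1.81 ± 0.29, limma adjusted p = 0.000223). The second probe set was likewise called, lower in osmads1 (-0.30, limma adjusted p = 0.0213) and higher in wild type (0.33, limma adjusted p = 0.0133).

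The other 5 WRKY genes were not called between lengths in either genotype, where 62.2% of all genes were called in osmads1 and 57.2% in wild type. The nearest to the threshold were WRKY51 in osmads1 (-0.18, limma adjusted p = 0.0608) and WRKY62 in wild type (0.34, limma adjusted p = 0.0793). The 18S ribosomal RNA control read 12.75 at 2 mm and 7.13 at 5-7 mm in osmads1, and 12.69 and 7.29 in wild type, so RNA preparation or labelling and length cannot be told apart. With the deposited values less the median shift, 2 genes were called lower in osmads1 and 4 higher in wild type. The share of all genes called in that setting is not given here, so these counts cannot be set against it.

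Genes that share pathways with the WRKY factors were taken from lists made by role, which were covered in part. Usable genes came from 14 of 29 names for stress transcription factors, 7 of 19 for the aleurone gibberellin list and 5 of 17 for salicylic acid signalling. They came from 7 of 19 names for receptors and MAP kinases, 11 of 20 for brassinosteroids and 5 of 12 for leaf senescence. Among 14 stress transcription factors outside the family, 8 fell and 0 rose at 5-7 mm, against 19.4% of all genes called lower and 13.3% higher, with a median difference of -0.61 against -0.02 over all genes. At 2 mm 4 of the 14 rose and 1 fell, against 10.2% of all genes called higher and 12.1% lower. NAC6, a stress-induced NAC factor of rice, read 4.49, 4.53 and 4.51 in osmads1 at 5-7 mm, against 7.93, 7.70 and 7.95 in wild type. This was a fall of 10.2-fold (-3.35 ± 0.13, limma adjusted p = 2.21e-09), and all mutant arrays lay just above the 90th percentile of the reporter controls. At 2 mm NAC6 read 8.09, 8.71 and 8.42 in osmads1, against 6.91, 7.16 and 7.21 in wild type, with all mutant arrays higher (1.31 ± 0.13, limma adjusted p = 2.71e-05).

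Other genes of that list also changed sign between the lengths. NAC3 rose by 0.89 at 2 mm and fell by 1.85 at 5-7 mm, NAC5 rose by 1.01 and fell by 1.22, and MYBS3, a MYB factor that represses alpha-amylase genes under sugar in rice, rose by 0.55 and fell by 0.75. The adjusted p-values of these 3 genes in limma were at most 0.00423, and each interaction passed the test. DREB1A, a cold-induced factor, read 4.16, 4.23 and 3.52 in osmads1 at 5-7 mm, against 6.12, 6.45 and 5.55 in wild type. The fitted difference was -2.07 ± 0.21 (limma adjusted p = 1.28e-05), at least 3.29-fold when the reporter percentile is taken as the floor. At 2 mm DREB1A read 3.82 to 4.06 in osmads1 and 3.69 to 4.01 in wild type, overlapping and near that percentile.

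**Figure D3:**
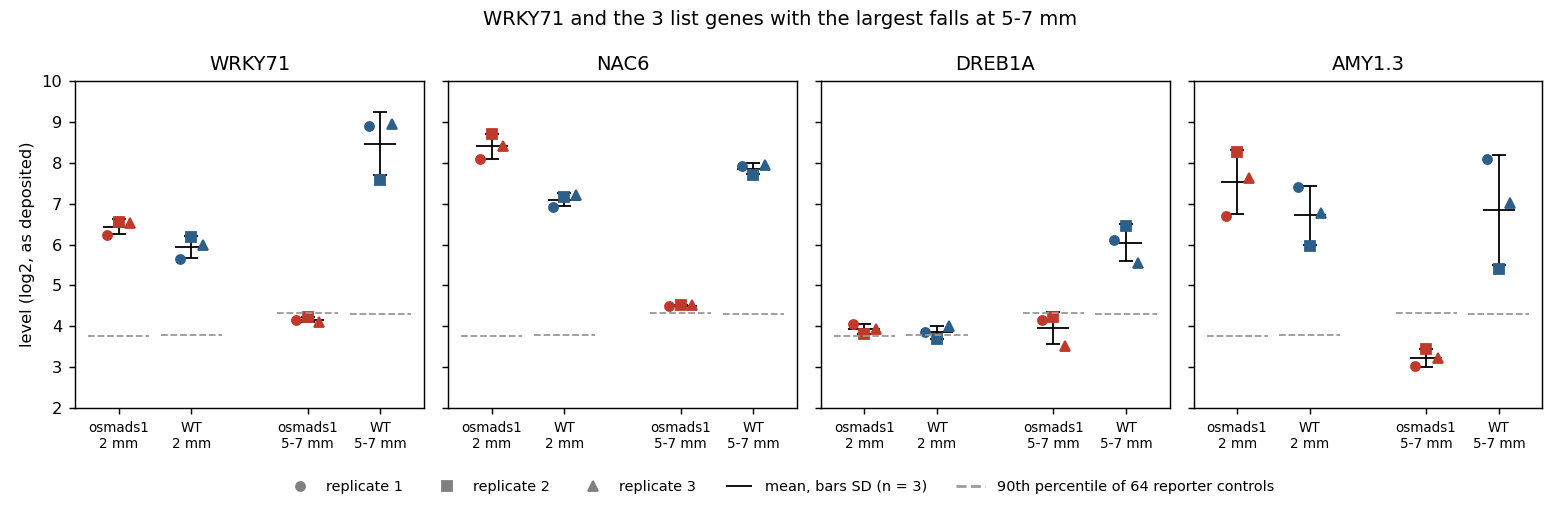
Deposited log2 level of WRKY71, NAC6, DREB1A and AMY1.3 on the 12 arrays, with osmads1 in red and wild type (WT) in blue, means with SD (n = 3), and the 90th percentile of the reporter controls as dashed lines. The last 3 are the list genes with the largest falls at 5-7 mm. At that length all osmads1 points of the 4 genes lie between 3.02 and 4.53, below all wild-type points.

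The aleurone gibberellin list holds gibberellin signalling genes and alpha-amylase genes. It was chosen because WRKY71, WRKY51 and WRKY24 repress the gibberellin response in the rice aleurone. Whether they act on the listed genes in panicles was not tested. Of its 7 genes, 2 fell and 0 rose at 5-7 mm, against 19.4% and 13.3% of all genes, and 0 were called at 2 mm, against 22.3%. The alpha-amylase genes AMY1.1, AMY1.2 and AMY1.4 lay below the 90th percentile of the reporter controls in every group, which limits what their readings can show. AMY1.3, an alpha-amylase gene, read 3.02, 3.45 and 3.23 in osmads1 at 5-7 mm, against 8.09, 5.41 and 7.01 in wild type. The mutant arrays were all lower and in the range of the reporter controls, and wild-type replicate 2 was again the lowest of its group. The difference was -3.60 ± 0.56 (limma adjusted p = 0.000448), at least 5.72-fold with the reporter percentile as the floor. That least fold was 9.38 without wild-type replicate 2 and 3.70 without wild-type replicate 1. At 2 mm the AMY1.3 arrays overlapped, with 6.69, 8.25 and 7.64 in osmads1 and 7.42, 5.97 and 6.77 in wild type. GID1, the gibberellin receptor, fell by 0.63 at 5-7 mm (limma adjusted p = 0.000114).

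Salicylic acid signalling, in which several rice WRKY factors act, had 4 of 5 genes lower and 0 higher at 5-7 mm, against 19.4% and 13.3% of all genes. NH1, NH2 and NH3, the rice relatives of the salicylic acid co-regulator NPR1, fell by 0.51, 0.48 and 0.61, and OsTGA2.1, a bZIP factor that binds NH1, fell by 0.47. Their limma adjusted p-values were at most 0.00151. Wild-type replicate 2 was the lowest of its group for 5 of these 5 genes, so leaving it out could only widen their falls. Without it 4 of 5 were called lower, which therefore does not test how firm these calls are. At 2 mm NH1 fell by 0.48 (limma adjusted p = 0.00130) and the other 4 genes were not called.

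Chitin and flagellin receptors and MAP kinases moved both ways, with 3 of 7 higher and 2 lower at 5-7 mm, against 13.3% and 19.4% of all genes. At 2 mm 1 was higher and 0 lower, against 10.2% and 12.1%. CEBiP, a chitin receptor, rose by 1.54 at 2 mm (limma adjusted p = 2.64e-08) and fell by 0.34 at 5-7 mm (limma adjusted p = 0.00588). LYP4, a LysM receptor of chitin and peptidoglycan, OsRbohB, an NADPH oxidase, and the MAP kinase OsMPK6 rose by 0.47, 0.44 and 0.31 at 5-7 mm, with limma adjusted p-values of at most 0.0120.

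Downstream defence genes were covered in part, since 16 of 22 listed diterpenoid names and 7 of 26 listed pathogenesis-related names gave a usable gene. Of the 16 genes of diterpenoid phytoalexin synthesis, 0 were called at 2 mm, against 22.3% of all genes. At 5-7 mm 1 was called higher and 0 lower, against 13.3% and 19.4%. This was the diterpene synthase KSL7, which rose by 0.44 (limma adjusted p = 0.0329) and was not called without wild-type replicate 2. Of the 7 pathogenesis-related genes, 1 was called at 2 mm, against 22.3% of all genes. At 5-7 mm 1 was called higher and 1 lower, against 13.3% and 19.4%. PBZ1, a PR10 protein gene, rose by 1.45 at 2 mm (limma adjusted p = 4.84e-05) and by 0.60 at 5-7 mm (limma adjusted p = 0.0151), and the chitinase gene CHT3 fell by 0.47 at 5-7 mm (limma adjusted p = 0.00667). Most of the diterpenoid genes read within the range of the reporter controls. The chitinase genes CHT8, CHT9 and CHT11 lay below the 90th percentile of these controls in every group.

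Brassinosteroid synthesis and signalling had 1 of 11 genes higher and 0 lower at 5-7 mm, against 13.3% and 19.4% of all genes. It was D11, a cytochrome P450 of brassinosteroid synthesis, at 0.81 (limma adjusted p = 5.89e-05). At 2 mm 1 of 11 was lower, the co-receptor BAK1 at -0.22 (limma adjusted p = 0.0485), against 12.1% of all genes. Without wild-type replicate 2 of 5-7 mm, which enters the shared spread, 0 of 11 were called at 2 mm. Leaf senescence had 2 of 5 genes lower and 0 higher at 5-7 mm, against 19.4% and 13.3% of all genes, and 0 called at 2 mm, against 22.3%. The 2 were NYC1 and NOL, which encode chlorophyll b reductase, and they fell by 0.68 and 0.56 (limma adjusted p at most 0.000664).

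**Figure D4:**
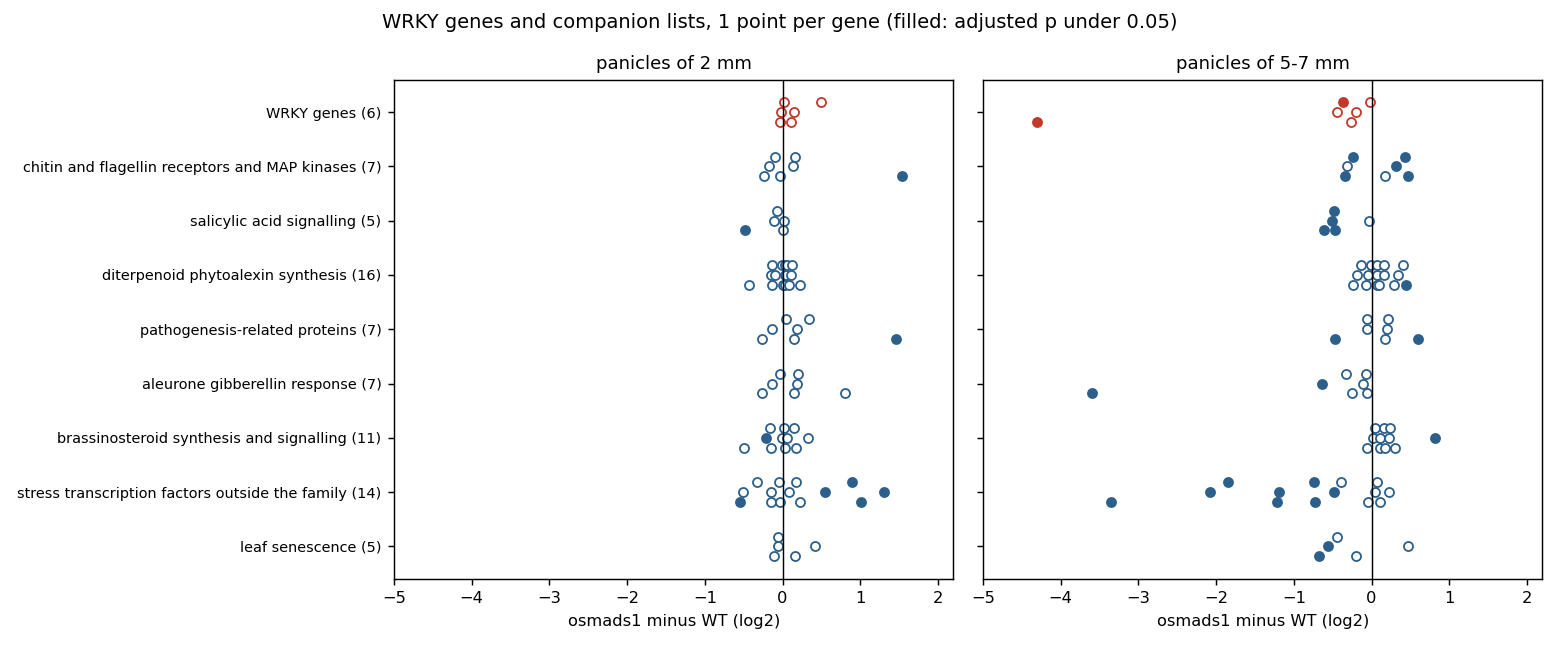
Log2 difference osmads1 minus wild type at 2 mm and at 5-7 mm for the 6 WRKY genes (red) and the genes of 8 lists (blue), 1 point per gene and filled where the limma adjusted p was below 0.05. The number of genes stands beside each name. At 5-7 mm the filled points of the stress transcription factors lie at -0.48 and below, and the most negative point of all is WRKY71 at -4.31.

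Clock genes, chosen after their values were seen, differed at 2 mm. OsCCA1, a morning-phased clock gene, was higher in osmads1 by 3.68 at 2 mm (limma adjusted p = 2.29e-10) and by 0.42 at 5-7 mm (limma adjusted p = 0.0180). OsPCL1, an evening-phased clock gene, was lower by 3.53 at 2 mm (adjusted p = 1.87e-10 by limma) and differed by 0.03 at 5-7 mm (adjusted p = 0.881 by limma). Whether sampling time differed is not given in the sources used here, and the part of it in the WRKY values was not tested.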

How the data were processed

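The deposited table holds log2 levels of Affymetrix rice probe sets, and the submitters' processing notes name Partek and RMA. Their versions are not given in the sources used here. The RMA method quantile normalizes arrays and gives no detection call, and a 3' IVT kit labelled the RNA, per the labels' protocols. No batch is given. Of 57381 probe sets, 187 controls were left out and 57194 tested without a filter. The platform annotation gave 1 symbol for 22436, several for 95 and none for 34663. A gene took its brightest probe set over the 12 arrays.

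limma 3.58.1 in R 4.3.3 fitted 1 mean per group over all 12 arrays (residual degrees of freedom 8, prior 4.74), with two-sided Benjamini-Hochberg p-values over all probe sets. It was tested on simulated data. Replicates correlated at 0.9954 to 0.9977, and 3 arrays per group limit the precision. Least folds take the 90th percentile of the reporter controls as the floor. Figures used matplotlib 3.10.9.

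Members and lists were chosen with earlier results of these data known. List genes named are up to 4 per list and comparison, those with the largest called differences. Other normalizations, a dim filter, variance priors, array weights, replicate blocks, thresholds, probe set choices and leaving out arrays were tried. Protein groups and promoter motifs were not analysed here.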

Additional observations from a re-analysis of the deposited data

Results flagged for a closer look

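The genotype difference changed between 2 mm and 5-7 mm, by limma's interaction test, for 2 WRKY genes. The change, the 5-7 mm difference minus the 2 mm difference, was -4.80 ± 0.39 for WRKY71 (limma adjusted p = 1.73e-06) and -0.35 ± 0.11 for WRKY51 (limma adjusted p = 0.0408). OsMADS1 changed by -1.49. Its mutant level of 4.86 at 2 mm lay above the reporters' 90th percentile of 3.76, and that of 4.10 at 5-7 mm lay below the percentile of 4.32.

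Among the stress transcription factors the change was -4.66 for NAC6, -2.74 for NAC3, -2.23 for NAC5, -2.16 for DREB1A and -1.29 for MYBS3. Of the 14 genes of that list, 6 were called lower and 1 higher in the interaction, against 19.2% of all genes called lower. The share of all genes called higher is not given here. In the salicylic acid list the change was -0.54 for NH3, -0.49 for NH2 and -0.36 for OsTGA2.1. For the aleurone gibberellin list it was -4.41 for AMY1.3 and -0.78 for GID1.

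CEBiP changed by -1.88, LYP4 by 0.64 and OsMPK6 by 0.41. For pathogenesis-related genes it was -0.85 for PBZ1 and -0.51 for CHT3. BAK1 changed by 0.33, D11 by 0.48, NYC1 by -0.84 and NOL by -0.50. The clock genes OsCCA1 and OsPCL1 changed by -3.27 and 3.57. All of these had limma adjusted p-values below the threshold of 0.05.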

How the results depend on the processing

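Under the alternatives tried, the fall of WRKY71 at 5-7 mm was -4.76 to -0.63, the smallest with its dimmer probe set. That of WRKY51 was -0.42 to -0.31. Both stayed called, except that WRKY51 was lost where a call also needed a change of at least 2-fold. In all alternatives 0 WRKY genes were called at 2 mm. In the interaction the count of 2 became 1 under median centring, with replicate numbers as a block within each length, at an adjusted p below 0.01 and at 2-fold, and was 1 to 2 without single arrays. WRKY51 was the gene lost. Without wild-type replicate 2 of 5-7 mm WRKY51 missed (adjusted p = 0.0921), WRKY62 was called (-0.54, adjusted p = 0.0428) and the count stayed 2. At 5-7 mm the count of 2 became 1 at 2-fold and was 2 to 4 without single arrays, and the median of -0.32 was -0.417 to -0.241. Between lengths, osmads1 had 2 calls with deposited values less the median shift, with the dim filter (which left 3 members) and with the block over both lengths, and 1 to 1 without single arrays, while wild type had 4 with the shift and 1 to 2 without single arrays. Deviations of same-numbered arrays of the genotypes correlated at 0.014 to 0.084 at 2 mm and at -0.068 to 0.074 at 5-7 mm. The best match had the same number for replicates 1 and 2 at 2 mm and replicate 2 at 5-7 mm, and another number for the rest. Such values cannot show whether arrays were handled in pairs, which the labels do not state. The block changed no other call. Uncalled differences near 0 turned sign. With array weights WRKY24 was -0.14 and WRKY76 0.0045 at 2 mm, and the WRKY24 interaction was 0.13. Without single arrays, the 2 mm differences ranged over -0.087 to 0.14 for WRKY24, -0.070 to 0.019 for WRKY51, -0.0029 to 0.22 for WRKY62 and -0.12 to 0.11 for WRKY76, and those at 5-7 mm over -0.062 to 0.0066 for WRKY9 and -0.43 to 0.014 for WRKY24. The cause was not tested. Leaving out wild-type replicate 2 of 5-7 mm for the lists and leaving out single arrays for the least folds were chosen after seeing the data. Dim readings limit WRKY24, WRKY62 and WRKY76. Shares of all genes called are not given for the alternative settings.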
